A study of Solanum lycopersicum with 18 samples.

Results

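Leaves of Micro-TOM-EX (EX) were set against leaves of Micro-TOM (MT) at 0 h, before any hours of cold had passed, to ask which transcripts already differed between both tomato materials at the start. Every gene with a mean of at least 1 FPKM (fragments scaled to transcript length and library depth) in EX or in MT at 0 h was taken, which left 17315 of the 23348 genes in the deposited table. EX at 0 h and MT at 0 h held 3 libraries each, out of 18 libraries that also cover 4 h and 12 h. The genotype labels give Micro-TOM-EX and Micro-TOM and do not say what the suffix stands for, so neither a transgene nor a cross can be named for EX. Micro-TOM is a dwarf cultivar that is widely used in laboratories. The stress label reads cold for EX and control for MT even at 0 h, while the growth protocol describes the same soil, 16 h of light and cold treatment for both. Whether replicate libraries stand for separate plants is not stated, so the p-values measure only the spread between libraries, which may be technical.

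The leaf is the organ in which photosynthesis, nitrate assimilation and defence chemistry meet. Light-harvesting proteins feed the photosystems, nitrite reductase and asparagine synthetase move nitrogen into amino acids, and GABA transaminase breaks down the amino acid GABA, which builds up in many stressed plants. Tomato leaves also store steroidal glycoalkaloids made from sterols, and on wounding they make proteinase inhibitors and other proteins that hinder the digestion of insects. Cold itself acts largely through CBF factors, which turn on protective genes.

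The 6 libraries were close in depth, and their levels of leaf markers varied. The size of 1 fragment in low FPKM values put their depth at an estimated 17000000 to 17700000 fragments. All 17 leaf mesophyll markers in the table were expressed, with summed levels of 52908 to 92353 FPKM in EX and 34122 to 67901 FPKM in MT, where library 1 was the lowest. Summed markers of fruit ripening lay at 54.7 to 65.3 FPKM in EX and 58.4 to 99.7 FPKM in MT, and those of seed at 0.24 to 0.68 FPKM in EX and 0.4 to 6.36 FPKM in MT. Of the wounding markers, summed levels were 452 to 571 FPKM in EX and 263 to 357 FPKM in MT, with no overlap. That lack of overlap rested on 1 marker, the inhibitor gene mcpi described below. In library 1 of EX, mcpi gave 156.96 of 451.95 FPKM, and in library 1 of MT 13.44 of 356.64 FPKM. Without mcpi, library 1 of MT thus overlapped EX, while libraries 2 and 3 of MT still lay below EX. Of the 10 tested wounding markers, 7 had a positive difference, beside 38.5% of all genes, and their median was 0.71, beside -0.10. Without overlap, 4 were higher and 1 was lower in EX, beside 5.81% and 16.1% of all genes. The libraries of MT at 0 h were the more scattered ones, with a median SD per gene of 0.190 log2 units in EX and 0.268 log2 units in MT. In this bulk tissue, fewer cells of a type and less RNA per cell cannot be told apart.

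EX differed from MT at 0 h in a small set of strongly changed genes and in a wide set of shallow ones. In limma's moderated test on log2(FPKM + 1), 601 genes were called at an adjusted p under 0.05, which is 3.47% of the genes tested. Of these, 180 were higher in EX (1.04%) and 421 were lower in EX (2.43%). The higher calls were the stronger ones, with a median log2 difference of 0.999 against -0.69 for the lower calls, and 89 higher and 92 lower calls passed 1 log2 unit. The 3 libraries of EX lay wholly above or below the 3 of MT for 594 of the calls, and this was so for 21.9% of all genes tested (5.81% higher and 16.1% lower in EX). The excess of lower calls depended on the scaling between libraries. After median-of-ratios scaling, which moved the median difference of all genes to -0.01 from -0.10, 367 genes were called, 212 higher and 155 lower.

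**Figure D1:**
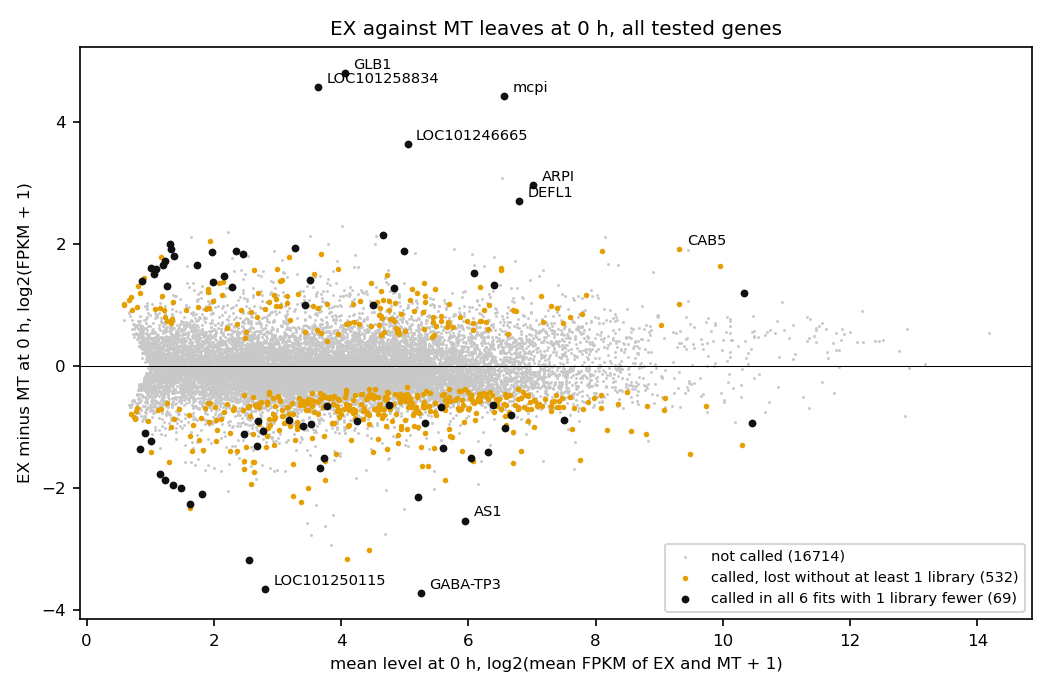
Difference between EX and MT at 0 h (y axis, log2 of FPKM + 1, EX minus MT) against the mean level of each of the 17315 genes (x axis, log2). Orange and black dots are the 601 calls, and the 69 black ones stayed called in every fit with 1 library fewer; most orange dots lie at shallow negative differences, while the outermost dots, such as GLB1 at 4.80 and GABA-TP3 at -3.73, are black.

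Single libraries set the size of this list. Leaving out library 1 or library 3 of EX gave 88 and 95 calls, and leaving out library 1 or library 3 of MT gave 152 and 126. Leaving out library 2 of MT gave 3437, and leaving out library 2 of EX gave 514. Library 2 of MT was also the one furthest from its group. Its median absolute distance per gene from the mean of the other 2 was 0.315 log2 units, against 0.276 for library 1 and 0.222 for library 3. List values with a library of MT left out are given below for library 1 alone. A limma fit on the 6 libraries alone called 23 genes (0.133%), 13 higher and 10 lower, of which 21 were among the 601. A core of 69 genes (0.398%), 33 higher and 36 lower, was called with all libraries and in each of the 6 fits with 1 library fewer. For each gene below, the number of those 6 fits that kept its call is given. Each of these fits still held the libraries of 4 h and 12 h. In the authors' deposited table, 13640 of the 17315 genes (78.8%) had a q-value under 0.05 for this comparison, and all 601 calls were among them with the same sign. Those values are for the same groups of EX and MT at 0 h, so the shared sign gives no separate support.

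Genes of defence against insects and microbes gave several of the strongest higher calls. The gene mcpi encodes a metallocarboxypeptidase inhibitor, a small protein that blocks digestive enzymes (chromosome 7, 1989154 to 1990602). Its levels were 156.96, 138.97 and 239.66 FPKM in EX, against 13.44, 6.37 and 4.04 FPKM in MT. The groups lay far apart, and the log2 difference was 4.43 (SE 0.56, adjusted p = 0.000889, kept in 6 of 6 fits). ARPI, a proteinase inhibitor gene (chromosome 11, 13312544 to 13313544), had 259.47, 166.87 and 256.90 FPKM in EX, against 16.53, 41.78 and 30.68 FPKM in MT. Its log2 difference of 2.96 (SE 0.51, adjusted p = 0.00778) was also kept in all 6 fits. In the limma fit on the 6 libraries alone ARPI was not called (adjusted p = 0.0608). DEFL1, a defensin-like gene on chromosome 7, stood at 161.50, 167.99 and 243.51 FPKM in EX, against 22.68, 38.64 and 25.34 FPKM in MT. No library of MT reached those of EX, and the log2 difference was 2.70 (adjusted p = 0.00453, kept in 6 of 6 fits).

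TD2, a threonine deaminase that removes an essential amino acid from the food of leaf-eating insects, was called higher too, though less firmly. It had 15.22, 24.72 and 16.60 FPKM in EX, against 3.26, 3.50 and 7.52 FPKM in MT (log2 1.83, adjusted p = 0.0402). The call held in 1 of 6 fits and had an adjusted p of 0.147 without library 1 of MT. Going the other way, TGAS118 was lower, with 0.91, 0.31 and 4.05 FPKM in EX and 9.22, 10.43 and 5.17 FPKM in MT (log2 -1.94, adjusted p = 0.0486, kept in 2 of 6 fits). Of the 30 tested pathogenesis-related and proteinase inhibitor genes, 4 were called higher (mcpi, ARPI, DEFL1 and TD2) and 1 lower (TGAS118), beside 1.04% and 2.43% over all genes. The list's median log2 difference was -0.03, beside -0.10 for all genes. The osmotin-type gene NP24-I, at a log2 difference of -2.58 with no overlap, was not called, nor was the leucine aminopeptidase gene LAPA1 at 1.47. The wounding markers, whose summed level was higher in EX with mcpi counted, include mcpi, TD2 and LAPA1, and their part in this group's differences was not tested.

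Nitrogen genes included the largest difference of all genes tested. GLB1 encodes a class 1 hemoglobin, a protein that in plants scavenges nitric oxide, and lies on chromosome 7 (2965697 to 2967964). It had 34.17, 36.97 and 22.92 FPKM in EX, against 0.19, 0.00 and 0.25 FPKM in MT. MT leaves thus held almost none of this transcript at 0 h, and the log2 difference was 4.80 (SE 0.29, adjusted p = 4.27e-07, kept in 6 of 6 fits and in the fit on the 6 libraries alone). The nitrite reductase gene nii1 was higher by a smaller step, at 54.14, 52.43 and 56.01 FPKM in EX and 25.77, 35.65 and 31.71 FPKM in MT (log2 0.80, adjusted p = 0.0332, kept in 2 of 6 fits). AS1, an asparagine synthetase gene on chromosome 6 (1237850 to 1242478), was lower, with 21.45, 23.55 and 9.15 FPKM in EX against 128.88, 93.67 and 88.29 FPKM in MT. That log2 difference of -2.54 (SE 0.42, adjusted p = 0.00669) was kept in 6 of 6 fits, but not in the limma fit on the 6 libraries alone (adjusted p = 0.11). CGS, cystathionine gamma-synthase of methionine synthesis, was called lower as well (log2 -0.71, adjusted p = 0.0469, kept in 2 of 6 fits). So 2 of 21 tested nitrogen and amino acid genes were called higher and 2 lower, around a list median of -0.06. Over all genes, 1.04% were called higher and 2.43% lower.

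The most negative difference of any call belonged to GABA-TP3, a GABA transaminase gene on chromosome 12 (921679 to 927385). It had 3.89, 2.92 and 4.78 FPKM in EX, against 106.22, 30.76 and 74.32 FPKM in MT. The lowest library of MT was still well above the highest of EX, and the log2 difference was -3.73 (SE 0.33, adjusted p = 2.33e-05, kept in 6 of 6 fits). GABA-TP3 was the only member called among the 7 tested GABA genes, whose median was -0.19, beside 3.47% called over all genes. On the 6 libraries alone the adjusted p of GABA-TP3 was 0.06.

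Photosystem and light-harvesting genes leaned upward in EX, but nearly all were not called, and the list as a whole was not tested. All 22 tested photosystem and light-harvesting genes had a positive difference, beside 38.5% of all genes, and the list's median was 0.54. Only CAB5, a light-harvesting chlorophyll-binding protein gene on chromosome 12, was called, at 1088.07, 581.57 and 1302.75 FPKM in EX and 123.69, 379.45 and 325.50 FPKM in MT (log2 1.91, adjusted p = 0.0442, kept in 2 of 6 fits). The summed level of the 22 genes showed how much 1 library weighed. It was 76933, 51505 and 84900 FPKM in EX, against 36864, 63396 and 62939 FPKM in MT, so library 2 of EX lay below libraries 2 and 3 of MT. Without library 1 of MT the list median was 0.17 and 18 of 22 members were positive. Among 19 carotenoid genes, NXD1, which is needed to make the leaf carotenoid neoxanthin, was the 1 call (log2 1.03, adjusted p = 0.011, kept in 3 of 6 fits), with a list median of 0.43, or 0.21 without library 1 of MT. The 1 call is 4.55% of the photosystem list and 5.26% of the carotenoid list, beside 3.47% over all genes.

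Sterol and glycoalkaloid genes gave 4 higher calls and 0 lower calls among 29 tested, beside 1.04% called higher over all genes, with a list median of 0.20. C5-SD, a sterol desaturase gene, had 29.98, 21.86 and 24.66 FPKM in EX and 8.34, 12.72 and 14.50 FPKM in MT (log2 1.06, adjusted p = 0.0349). GAME17, a glycosyltransferase that adds sugar to the alkaloid, had 27.79, 31.60 and 31.90 FPKM in EX and 11.20, 11.47 and 22.49 FPKM in MT (log2 1.04, adjusted p = 0.025). GAME6, a cytochrome P450 of the same pathway, had 5.12, 5.36 and 7.63 FPKM in EX and 2.14, 3.46 and 2.55 FPKM in MT (log2 0.92, adjusted p = 0.02). In all of these every library of EX was above every library of MT, as it was for DWF5-2, which encodes a sterol reductase (log2 1.06, adjusted p = 0.0281). The calls were kept in 2 or 3 of 6 fits each, and without library 1 of MT their adjusted p-values lay between 0.0876 and 0.139.

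**Figure D2:**
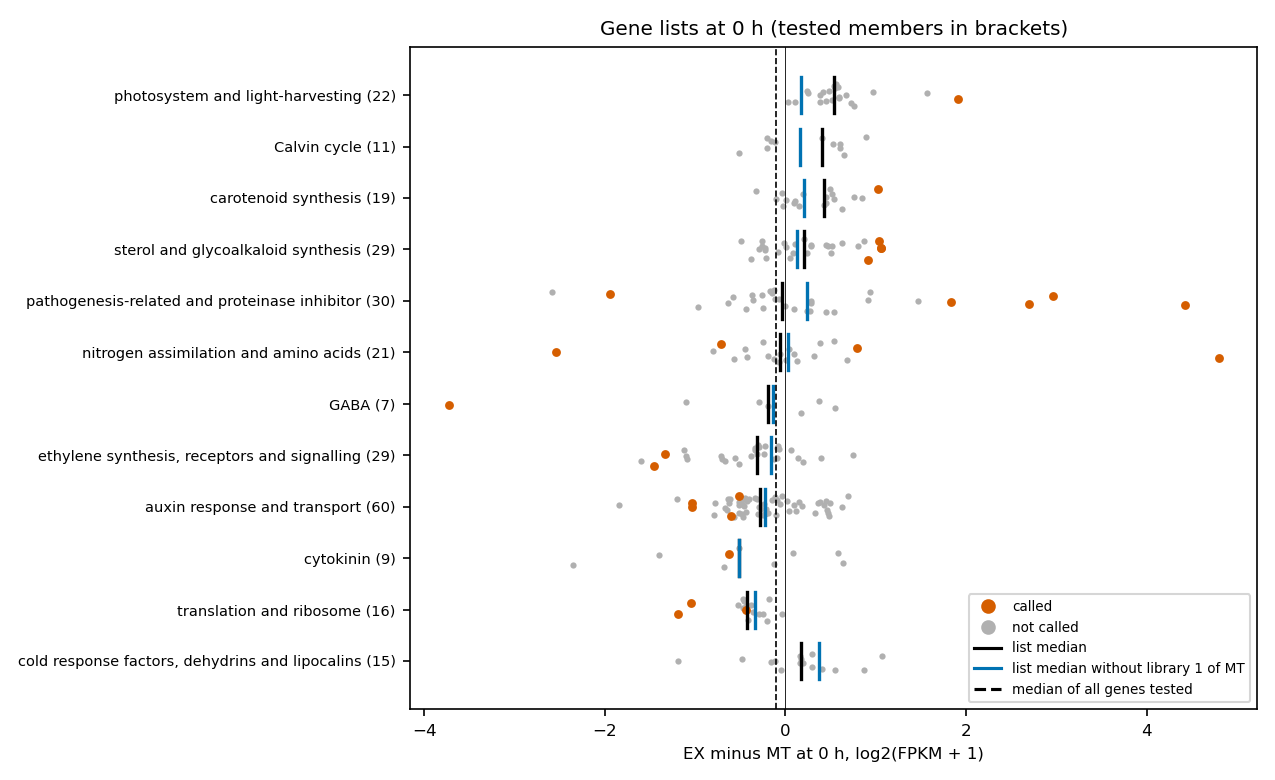
Differences between EX and MT at 0 h (x axis, log2 of FPKM + 1, EX minus MT) for the tested members of 12 gene lists, with called members in orange, list medians in black and medians without library 1 of MT in blue. The medians of photosystem, Calvin cycle and carotenoid genes moved toward 0 without that library, while that of translation genes went to -0.34 from -0.42.

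Of 16 tested translation genes, 3 were called lower and 0 higher, beside 2.43% called lower over all genes. All 16 had a negative difference, with a median of -0.42 beside -0.10 for all genes. For 12 of the 16, every library of EX was below every library of MT, which held for 16.1% of all genes. The ribosomal protein gene rps16 (chromosome 7) had 5.39, 6.95 and 6.13 FPKM in EX and 16.37, 13.46 and 15.94 FPKM in MT (log2 -1.18, adjusted p = 0.0115, kept in 4 of 6 fits). The factor gene eIF-5A1 had 134.72, 155.96 and 95.49 FPKM in EX and 315.17, 193.84 and 289.66 FPKM in MT (log2 -1.04, adjusted p = 0.0452), and EIF(ISO)4G, part of the cap-binding complex, followed at -0.43 (adjusted p = 0.0425), each kept in 2 of 6 fits. The summed level of the list was 3305, 3361 and 3330 FPKM in EX, against 4687, 4044 and 4418 FPKM in MT, so the groups were apart. The median stayed negative at -0.32 after median-of-ratios scaling and at -0.34 without library 1 of MT, with all 16 members negative in the second case.

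Auxin genes gave 4 lower calls and 0 higher calls among 60 tested, beside 2.43% called lower over all genes, with a median of -0.28. Aux/IAA proteins repress auxin responses, and GH3 enzymes tie auxin to amino acids. IAA4 had 21.18, 23.76 and 14.83 FPKM in EX and 32.07, 32.40 and 66.93 FPKM in MT (log2 -1.04, adjusted p = 0.0428, kept in 2 of 6 fits). GH3-5 had 36.12, 32.91 and 27.86 FPKM in EX and 95.40, 49.13 and 63.99 FPKM in MT (log2 -1.04, adjusted p = 0.0483, kept in 1 of 6 fits). IAA12 was the steadier call, at 8.42, 7.30 and 7.32 FPKM in EX and 11.19, 11.54 and 13.98 FPKM in MT (log2 -0.61, adjusted p = 0.0128, kept in 4 of 6 fits). Without overlap, 15 of the 60 genes were lower and 1 was higher, beside 16.1% and 5.81% of all genes.

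Ethylene genes gave 2 lower calls and 0 higher calls among 29 tested, beside 2.43% called lower over all genes. ACO6, an ACC oxidase gene of ethylene synthesis, had 369.49, 406.74 and 272.37 FPKM in EX, against 1754.45, 487.59 and 982.20 FPKM in MT (log2 -1.45, adjusted p = 0.0355, kept in 2 of 6 fits). Library 1 of MT was the highest and library 2 of MT came close to EX. The list median was -0.31, or -0.16 without library 1 of MT. ERF1, an ethylene response factor gene, was lower too, at 1.04, 2.66 and 1.07 FPKM in EX and 17.06, 3.72 and 5.72 FPKM in MT (log2 -1.74, adjusted p = 0.0425, kept in 2 of 6 fits).

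Further called genes came from several lists or from none, in a table in which 421 of 601 calls were lower in EX. The gene krp3, an inhibitor of cyclin-dependent kinases, had 31.20, 40.64 and 23.91 FPKM in EX and 125.13, 53.33 and 122.92 FPKM in MT (log2 -1.56, adjusted p = 0.0273, kept in 2 of 6 fits). IPT5, an isopentenyltransferase of cytokinin synthesis, had 2.36, 2.65 and 2.92 FPKM in EX and 4.77, 3.95 and 5.11 FPKM in MT (log2 -0.62, adjusted p = 0.0441, kept in 1 of 6 fits). COP1, a repressor of light responses, had 9.82 to 11.63 FPKM in EX and 16.01 to 20.21 FPKM in MT (log2 -0.73, adjusted p = 0.0481, kept in 1 of 6 fits). The zinc-finger gene SAP10 (log2 -1.11), the homeobox gene HZ24 (log2 -1.41) and Dof22 (log2 -1.04) were called lower as well, in 1 or 2 of 6 fits. Higher in EX was FESOD, an iron superoxide dismutase that removes superoxide in plastids, at 874.84, 756.41 and 898.47 FPKM in EX and 303.88, 528.93 and 450.96 FPKM in MT (log2 1.01, adjusted p = 0.0233, kept in 2 of 6 fits).

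No cold factor passed the test at 0 h. CBF1 had 91.61, 131.23 and 136.66 FPKM in EX, against 80.20, 29.57 and 111.17 FPKM in MT. The groups overlapped, and the difference of 0.87 (SE 0.58) was not called (adjusted p = 0.37). None of the 15 tested cold response factor, dehydrin and lipocalin genes was called, beside 3.47% over all genes, and their median was 0.18. HY5, a light-response factor gene in that list, stood at -1.19 without overlap and was not called.

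**Figure D3:**
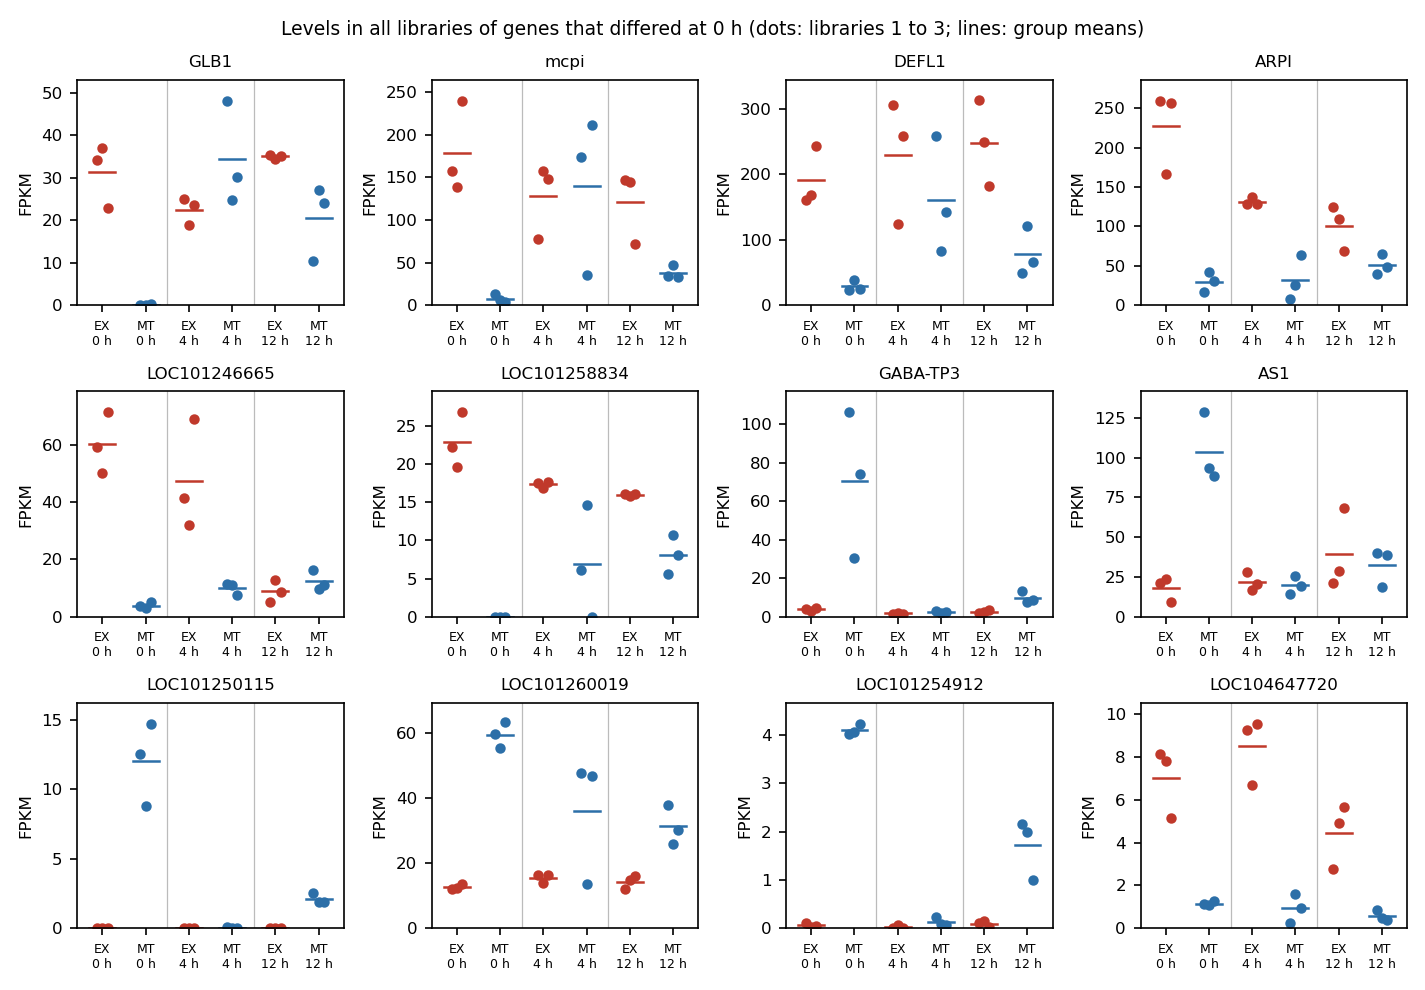
FPKM (y axes) of 12 genes called at 0 h, in EX (red, left of each pair) and MT (blue) at 0, 4 and 12 h; dots are libraries and lines are means of 3. At 4 h the MT dots of GLB1, GABA-TP3, AS1 and LOC101250115 lie at or beyond the level of EX, while LOC104647720 stays higher in EX at each time.

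The calls were gathered on parts of chromosomes 7 and 12. Chromosome 7 had 6.83% of its 1304 tested genes called and chromosome 12 had 5.08% of 1122, beside 3.47% over all genes. The core of 69 genes included 17 on chromosome 7 and 13 on chromosome 12. Of 233 windows of 1 Mb with at least 20 tested genes, 4 held 10 or more calls, and the median window held 2. These 4 were the stretch from 1 to 4 Mb on chromosome 7 and the first Mb of chromosome 12. A count favours windows with many genes. By share, the window from 57 to 58 Mb on chromosome 7, which holds GAME6, GAME17 and LOC101255510, was in the same range, with 6 of 28 genes called (21.4%), and 1 without library 1 of MT. Coordinates are those of the deposited table, and the sources used here do not give their genome build.

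On chromosome 7 from 1 to 4 Mb, 45 of 196 tested genes were called (23%), 21 higher and 24 lower in EX. The densest window, from 2 to 3 Mb, had 23 of 70 called, and 13 without library 1 of MT. The windows on either side had 12 of 75 and 10 of 51 called, and 10 and 4 without that library. GLB1, mcpi, DEFL1, rps16 and TGAS118 all lie here, so the stretch holds genes of several lists that differed in both directions. Of these, mcpi, DEFL1 and TGAS118 are called members of the pathogenesis-related and proteinase inhibitor list. LOC101248405 (2960786 to 2962418), close to GLB1, had 0 FPKM in all 3 libraries of EX against 2.37, 2.85 and 2.11 FPKM in MT (adjusted p = 6.54e-06). TGAS118 (2390305 to 2391435) and DEFL1 (2394475 to 2395559) likewise lie next to each other and differed in opposite directions. LOC101254912 (3440386 to 3447233) had 0.12, 0.03 and 0.05 FPKM in EX against 4.03, 4.07 and 4.23 FPKM in MT (log2 -2.26, adjusted p = 2.41e-06). LOC101255806 (3500613 to 3507834) had 36.65, 48.66 and 34.80 FPKM in EX against 11.39, 7.47 and 6.31 FPKM in MT (log2 2.15, adjusted p = 0.000465). The last 2 were kept in 6 of 6 fits, as was LOC101248405.

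In the first Mb of chromosome 12, 17 of 84 tested genes were called (20.2%), 4 higher and 13 lower in EX, and 7 without library 1 of MT. This window holds GABA-TP3, COP1 and CAB5. The GABA, clock and photosystem lists had 1 call each, and these were those genes.

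**Figure D4:**
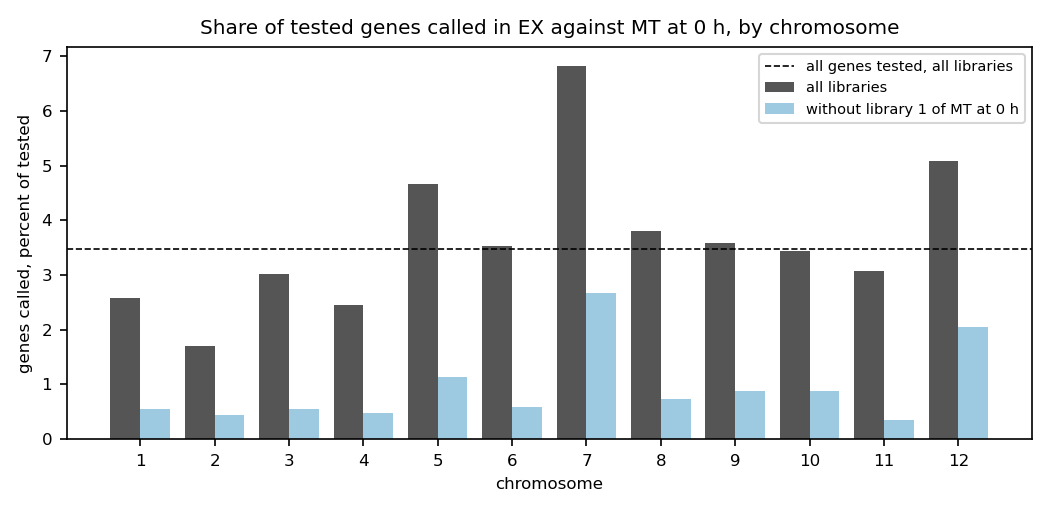
Percent of tested genes called between EX and MT at 0 h on each chromosome (y axis, bars from 0), with all libraries (dark) and without library 1 of MT at 0 h (light). Chromosomes 7 and 12 had the tallest bars in both fits, at 6.83% and 5.08% with all libraries and at 2.68% and 2.05% without that library.

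Several genes were present in one line and listed at 0 in the other. In 7 genes all 3 libraries of EX at 0 h were at 0 while MT averaged at least 1 FPKM, and 5 of the 7 lie on chromosome 12. In 13 genes it was MT at 0 h that was at 0 and EX that averaged at least 1 FPKM. Of these, 6 of the 7 and 11 of the 13 were called, which follows largely from how they were picked and is given as a description. LOC104644967 on chromosome 12 had 0.00 FPKM in each library of EX, against 11.68, 2.86 and 14.58 FPKM in MT (adjusted p = 0.00762). LOC101258834 on chromosome 12 (39816647 to 39819265) was the reverse case, with 22.20, 19.62 and 26.76 FPKM in EX against 0.00 FPKM in each library of MT (adjusted p = 0.00188). Both calls were kept in 6 of 6 fits, and that of LOC101258834 also on the 6 libraries alone (adjusted p = 0.000699). In LOC101247991, MT reached its mean through library 2 alone, at 5.49 FPKM against 0.00 in libraries 1 and 3, and it was not called.

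Across all 18 libraries, 4 added transcript models were at 0 in all 9 libraries of MT, namely BGI_novel_G000544, BGI_novel_G000543, BGI_novel_G000035 and BGI_novel_G000379. BGI_novel_G000544 and BGI_novel_G000543 overlap each other on chromosome 10, so their values are not independent. LOC101248555, LOC101248405 and LOC101247991 were at 0 in all 9 libraries of EX. Added models were called in 24 of 417 tested (5.76%), beside 3.41% of the known genes.

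**Figure D5:**
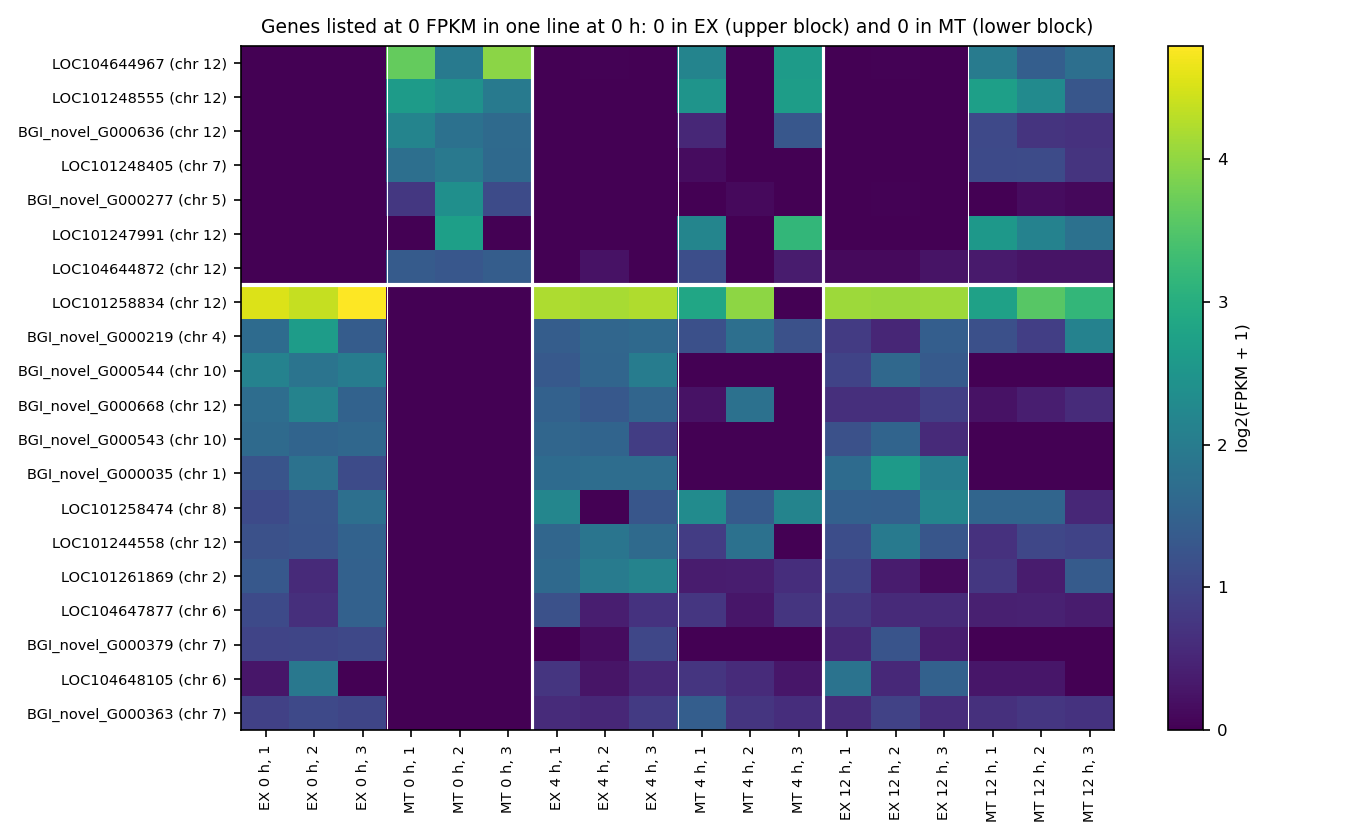
Level (colour, log2 of FPKM + 1) in each of the 18 libraries (columns, EX left of MT at each time) of the 7 genes at 0 FPKM in EX at 0 h (upper block) and the 13 at 0 in MT at 0 h (lower block). Library 2 of MT at 4 h is dark in the upper block, like EX, in all genes but 2 that hold at most 0.09 FPKM, and 4 genes of the lower block are dark in all 9 libraries of MT.

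Some of the largest differences of 0 h were not present at 4 h, and in the 3 genes given here the values of MT were the ones that moved. They were picked for their difference at 0 h, from which the change is counted. GLB1 had 24.97, 18.87 and 23.57 FPKM in EX at 4 h, against 48.06, 24.81 and 30.07 FPKM in MT at 4 h, and the change of the difference from 0 h was -5.34 log2 units (adjusted p = 1.27e-05). GABA-TP3 had 1.59, 2.11 and 1.54 FPKM in EX at 4 h, against 2.87, 2.12 and 2.28 FPKM in MT at 4 h (change 3.41, adjusted p = 0.00639). LOC101250115 on chromosome 5 had 0.00, 0.04 and 0.00 FPKM in EX at 0 h, against 12.55, 8.79 and 14.70 FPKM in MT at 0 h (adjusted p = 4.82e-09, kept in 6 of 6 fits). At 4 h it was at 0.00 FPKM in all libraries of EX and at 0.08, 0.00 and 0.00 FPKM in MT. At 12 h it was again at 0.00 FPKM in EX, against 2.54, 1.88 and 1.90 FPKM in MT.

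In the on and off genes of chromosome 12 the 3 libraries of MT at 4 h did not resemble each other. The same was seen in LOC101260019, which is not an on and off gene, as both lines expressed it. LOC101258834 had 17.51, 16.87 and 17.68 FPKM in EX at 4 h, against 6.16, 14.70 and 0.00 FPKM in MT at 4 h. LOC101260019 on the same chromosome had 16.34, 13.94 and 16.27 FPKM in EX at 4 h, against 47.53, 13.59 and 46.81 FPKM in MT at 4 h. LOC101248555 had 0.00 FPKM in each library of EX at 4 h, against 4.55, 0.00 and 5.32 FPKM in MT at 4 h. In each of these, library 2 of MT was the one at the level of EX. At 12 h all 3 libraries of MT lay between the EX level and the 0 h level of MT for LOC101258834 and LOC101260019, for example at 37.80, 25.91 and 30.12 FPKM for LOC101260019, against 11.93, 14.87 and 15.96 FPKM in EX at 12 h.

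Fewer genes were called between EX and MT at the later times. These counts rest on the labels of the MT libraries. In LOC101258834 and LOC101260019, library 2 of MT lay near the EX level at 4 h. At 12 h all 3 libraries of MT lay between the EX level and the 0 h level of MT in both genes. Library 2 of MT was also the one near EX at 4 h in LOC104644967, LOC101248555, LOC101247991 and LOC101244558, all on chromosome 12. This was not seen in 4 added models, which stayed at 0 in all 9 libraries of MT. Whether those libraries are as labelled was not tested, and change over time and mixed material cannot be told apart here. At 4 h 52 genes were called (0.3%), of which 25 were also called at 0 h in the same direction, and at 12 h 17 were called (0.0982%), of which 12 were. That is 4.16% of the 601 calls at 4 h and 2% at 12 h, and 48.1% and 70.6% of the calls of those times. The difference itself changed from 0 h in 18 genes at 4 h and in 3 genes at 12 h. Of the genes called higher at 0 h the median log2 difference was 0.32 at 4 h and 0.15 at 12 h, and of those called lower it was -0.25 at 4 h and 0.00 at 12 h. These medians are over genes chosen for their difference at 0 h. In the 45 calls from 1 to 4 Mb of chromosome 7 the median absolute log2 difference was 0.999 at 0 h, 0.23 at 4 h and 0.21 at 12 h. At all 3 times 6 genes were called. LOC104647720 on chromosome 5 was among those called each time, with 8.14, 7.80 and 5.17 FPKM in EX at 0 h against 1.12, 1.08 and 1.26 FPKM in MT at 0 h (log2 1.88, 2.35 and 1.75 at 0, 4 and 12 h).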

How the data were processed

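RNA was sequenced from tomato leaves of 2 materials at 3 times, with 3 libraries in each of 6 groups. Per the file headers, the authors deposited FPKM per gene and library with 2 decimals, in 2 identical copies of 18 columns, of which the first was used. Per the file headers, it also holds the authors' q-values, p-values and log2 ratios of groups, with no word on how they were computed. Tools listed in the submitters' processing notes, with no role, are DESeq2 1.4.5, RSEM 1.2.12, Bowtie2 2.2.5 and HISAT2 2.0.4. Whether strand was used in counting is not given, which leaves overlapping and antisense genes uncertain. Gene symbols came from the table and a RefSeq gene list (21649 of 23348 IDs matched), and LOC numbers and added models carry no role here.

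Depth was estimated from whole-fragment steps of low FPKM values, of which 93.7% to 96.2% were whole within 0.1 fragment. Genes averaging 1 FPKM or more in EX or MT at 0 h were tested as log2(FPKM + 1) with limma 3.58.1 (R 4.3.3), a trended moderation and 6 group means over all 18 libraries. This scale understates the change of low genes. P-values are for both directions and were adjusted by Benjamini-Hochberg over the 17315 genes; a call is an adjusted p under 0.05. The same fit gave the contrasts at 4 h and 12 h and the change of the difference. The code was tested on simulated data.

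Genes named in the text were those called, with at least 5 FPKM in the higher line and no overlap: the 12 highest and 12 lowest with a symbol and the 5 highest and 5 lowest without. Added to these were genes called on the 6 libraries alone, up to 8 per direction at 0 FPKM in 1 line, called members of the 34 gene lists, and CBF1; not all are printed, and some results are not reported here. Members and lists were chosen with earlier results of these data known, and some unlisted members were named after their values were seen. Alternatives were a fit on the 6 libraries, a replicate block, scaling, a pseudocount of 0.1, other filters, robust moderation, array weights and leaving out each library.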

Additional observations from a re-analysis of the deposited data

Results flagged for a closer look

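The difference between EX and MT changed from 0 h in 8 of the named genes at 4 h and in 3 at 12 h, by limma's test of the change of the difference itself. All values here are log2 units, the later EX minus MT difference minus that of 0 h. Most named genes were chosen for their difference at 0 h, so the direction of the change follows largely from how they were picked. For genes higher in EX at 0 h the change was negative. It was -5.34 for GLB1 at 4 h (adjusted p = 1.27e-05) and -3.96 at 12 h (adjusted p = 0.000853), and -1.83 for LOC104647892 at 4 h (adjusted p = 0.0389). For LOC101246665 it was -4.11 at 12 h (adjusted p = 0.000853). Here the values of EX were lower, and those of MT higher, at 12 h than at 0 h, with 5.19, 12.96 and 8.73 FPKM in EX at 12 h against 16.43, 9.70 and 11.18 FPKM in MT at 12 h, after 59.20, 50.07 and 71.32 FPKM in EX at 0 h against 3.64, 3.14 and 5.03 FPKM in MT at 0 h.

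For genes lower in EX at 0 h the change was positive. At 4 h it was 3.62 for LOC101250115 (adjusted p = 8.83e-07), 3.41 for GABA-TP3 (adjusted p = 0.00639), 2.54 for LOC101267794 (adjusted p = 0.00437), 2.28 for BGI_novel_G000362 (adjusted p = 0.00026), 2.12 for LOC101254912 (adjusted p = 0.000506) and 1.72 for LOC101248405 (adjusted p = 0.000839). At 12 h it was 2.03 for LOC101250115 (adjusted p = 0.000868). BGI_novel_G000362, LOC101254912 and LOC101248405 lie within the dense stretch of chromosome 7. The cause of these changes was not tested.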

How the results depend on the processing

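The 601 calls (180 higher, 421 lower) stayed within 1.5 times with a pseudocount of 0.1, without the filter, with a mean of at least 5 FPKM, and with robust moderation. They became 23 (13 and 10) on the 6 libraries of 0 h alone, 367 (212 and 155) with median-of-ratios scaling and 2442 (711 and 1731) with array weights. Leaving out the first MT library of both 0 h and 4 h, chosen after seeing the data, gave 201 (91 and 110). Leaving out 1 library each gave 88 to 3437 calls, 36 to 1055 higher and 52 to 2382 lower. The 25 calls shared with 4 h became 0 in fits on the libraries of each time alone, 11 without both of these, and 11 to 27 with 1 library fewer. The 12 shared with 12 h became 2 in fits on each time alone and 9 to 17 with 1 library fewer. The cause of these shifts was not tested, beyond the fewer libraries of those fits. With the replicate block the calls were 410 (153 and 257). The numbers share no stated origin, and the deviations of same-numbered libraries of EX and MT correlated at -0.24, -0.07 and 0.35, so they were not taken as pairs. None of the 71 named genes reversed under these settings. With 3 libraries a group and wide scatter in MT at 0 h, small differences between the lines could not be settled here.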

Other observations

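In several gene lists outside those above, the share called was near or below the 3.47% of all genes, and the called members are given as single genes. Of 59 tested ABC transporter genes, ABCF3 on chromosome 7 was the 1 call, at 28.48, 33.06 and 26.85 FPKM in EX and 52.05, 40.24 and 48.19 FPKM in MT (log2 -0.65, adjusted p = 0.022), while 15 were lower and 2 higher without overlap, beside 16.1% and 5.81% of all genes. Among 23 heat shock and chaperone genes, HSP21, a plastid small heat shock protein, was called higher, at 2.15, 2.76 and 3.69 FPKM in EX and 0.96, 1.70 and 0.55 FPKM in MT (log2 0.92, adjusted p = 0.0334). CMT3, a chromomethylase that keeps DNA methylated outside CG sites, was the 1 call among 29 DNA methylation and small RNA genes, at 1.86, 1.27 and 2.98 FPKM in EX and 0.37, 0.97 and 0.43 FPKM in MT (log2 0.91, adjusted p = 0.0387). Each of these 3 calls was kept in 1 or 2 of 6 fits with 1 library fewer. No call fell among the tested jasmonate (18), gibberellin (11), abscisic acid (10), sugar and starch (34), expansin and xyloglucan (25) or aquaporin (15) genes, whose median differences lay between -0.35 for gibberellin and 0.27 for jasmonate.

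A pair of genes without a symbol on chromosome 8 had their highest value in library 1 of MT. LOC101258887 had 0.96, 2.43 and 1.28 FPKM in EX at 0 h, against 98.86, 3.74 and 16.24 FPKM in MT at 0 h. LOC101247647 had 0.97, 1.67 and 0.29 FPKM in EX at 0 h, against 78.97, 4.89 and 9.61 FPKM in MT at 0 h. Every library of MT was above every library of EX in both, and without library 1 of MT the adjusted p-values were 0.119 and 0.12.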
